A study of Mus musculus with 15 samples.

Results

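HD28 cells are mouse mesenchymal stromal cells (MSC) that were taken through a hepatogenic protocol, and here their gene expression is set against that of MSC kept in growth medium. The comparison uses the 3 HD28 arrays and the 3 MSC arrays out of 15 Affymetrix mouse arrays in 5 groups of 3, with the group taken from the sample titles. It covers all 18193 genes with a named probe set, each read from whichever of its probe sets was brightest on average over the 15 arrays. MSC were grown in low glucose DMEM with 10% fetal bovine serum. HD28 cells first had IMDM with hepatocyte growth factor (HGF) at 20 ng/ml, basic fibroblast growth factor (bFGF) at 10 ng/ml and nicotinamide at 0.61 g/L for 7 days. They then had IMDM with oncostatin M at 20 ng/ml, the synthetic glucocorticoid dexamethasone at 1 µmol/L and a premix of insulin, transferrin and selenium. The labels name no serum for either of these media, so the loss of serum and the added factors cannot be told apart. Primary mouse hepatocytes, cultured in DMEM/F12 with 10% serum (Hepatocyte, 3 arrays), are given beside the 2 groups as a level only. The labels give no mouse strain, tissue of origin or passage, and whether replicates are separate cultures or animals is not stated, so the tests cover only the spread among these 6 samples and the other groups.

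Each factor of the protocol has a known route into the nucleus. HGF signals through the receptor Met and bFGF through the FGF receptors, both into the MAP kinase cascade, which switches on its own feedback inhibitors. Oncostatin M binds Osmr or Lifr together with Il6st and activates STAT3, which drives acute-phase plasma proteins in the liver. Dexamethasone binds the glucocorticoid receptor (Nr3c1), a transcription factor that induces genes for metabolism and for damping of inflammation, and oncostatin M with dexamethasone is a common pair for maturing liver cells in culture. Nicotinamide is a precursor of NAD. A cell that leaves the cell cycle silences its replication genes, which carry E2F sites, and its mitotic genes, which carry the cell cycle homology region (CHR).

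A gene is said to have risen or fallen where limma's adjusted p (Benjamini-Hochberg, over all genes) was under 0.05 and the groups differed at least 2-fold. The fit pools the spread of all 5 groups, so its standard errors and p-values do not describe HD28 and MSC alone. With all arrays, 590 genes rose (3.24% of those tested) and 641 fell (3.52%). Counts within the gene lists below are to be read against these shares. With HD28 replicate 3 left out, 492 rose (2.7%) and 557 fell (3.06%), and 450 rises and 494 falls were called both ways. Of the all-array calls, 331 rises and 355 falls also passed when each of the 6 arrays was left out in turn. All 3 HD28 arrays lay above all 3 MSC arrays in 1941 genes (10.7%) and below them in 3455 (19%). The median log2 change over all genes was -0.08 with all arrays and -0.09 without HD28 replicate 3. Large rises outnumbered large falls: 40 genes rose and 6 fell by at least 16-fold, and 7 rose and 0 fell by at least 64-fold.

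HD28 replicate 3 stood apart from the other HD28 arrays. In it 365 genes lay more than 2 log2 units above both other HD28 arrays and 0 lay below, against 12 above and 12 below for replicate 1 and 1 above and 14 below for replicate 2. All 11 measured hepatocyte markers were among these genes, with a mean log2 value of 12.22 in replicate 3 against 4.09 and 4.27 in replicates 1 and 2 and 4.27 to 4.37 in the MSC arrays. The lists of other cell types gave 3 of 12 Kupffer cell markers, 1 of 12 liver endothelium markers (Clec4g), 1 of 4 erythroid markers (Alas2), 0 of 7 cholangiocyte markers and 0 of 10 lymphocyte markers. By list mean, replicate 3 was the highest HD28 array for each of these types. Kupffer cell markers averaged 5.7 in replicate 3 and 4.19 and 4.45 in replicates 1 and 2. Liver endothelium markers averaged 5.48 against 4.78 and 4.96, and erythroid markers 4.47 against 3.53 and 3.93. Cholangiocyte markers (4.69 against 4.28 and 4.55) and lymphocyte markers (3.95 against 3.63 and 3.79) differed less. The 9 stromal markers had a mean between 9.26 and 9.5 in all 6 arrays, against 5.37 in Hepatocyte. Col1a1, Col1a2, Pdgfrb, Prrx1 and Twist1 stood far above the Hepatocyte mean in every array, so by these genes the stromal label held. Cd44 did too, but read 8.12 to 8.78 in HD28 against 10.21 to 10.53 in MSC. Eng and Nt5e lay below the Hepatocyte mean in every array, and Thy1 in all but MSC replicate 1 (5.91 against 4.64). Albumin (Alb), the main plasma protein of hepatocytes, read 3.38 and 3.75 in HD28 replicates 1 and 2, 13.8 in replicate 3, 3.83 to 3.95 in the MSC and 14.12 ± 0.02 (SD, n = 3) in Hepatocyte. Of the 365 genes, 354 did not pass the test with all arrays. In bulk RNA, a few cells of a type and little RNA per cell cannot be told apart.

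**Figure D1:**
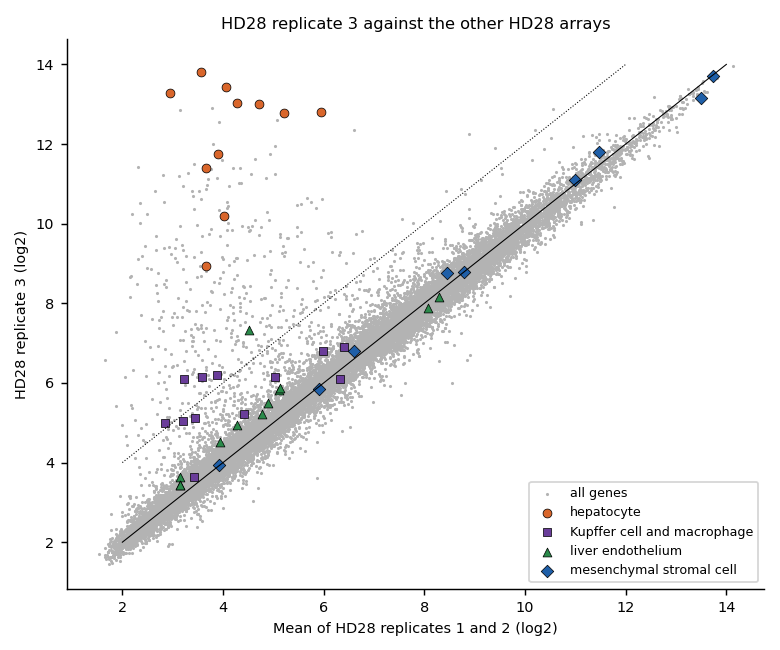
Log2 expression of each of 18193 genes in HD28 replicate 3 against the mean of HD28 replicates 1 and 2, with cell type markers coloured; the solid line is equality and the dotted line lies 2 log2 units above it. The 11 hepatocyte markers lie far above the dotted line, while the stromal markers lie near equality.

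Among the MSC arrays, replicate 1 lay more than 2 log2 units below both others in 155 genes and above them in 5. It and HD28 replicate 2 carried the high class of a poly-A spike-in control added to the RNA (7.95 and 7.63 log2, against 4.91 to 5.10 in the other 4 arrays). A fit with this class as a block called each called gene named here again, and the value is given where that fit called a gene that the fit without it did not. With only the arrays of low spike-in signal, 370 genes rose and 419 fell. Probe signals of the 3' end of actin exceeded those of its 5' end by 0.943 log2 in HD28 replicate 3, by 0.233 and 0.288 in the other HD28 arrays and by 0.126 to 0.443 in the MSC. In the Hepatocyte arrays the excess was 0.665, 1.244 and 1.227. The part of this 3' excess in the results was not tested.

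Because most of the listed cell cycle genes fell, the proximal promoters of 4 mitotic genes are shown first, each with its CHR in capitals. The windows are from RefSeq on assembly GRCm38.p6 and run from 250 bases before to 50 bases after the start of transcription. The CHR was searched as TTTGAA or TTCGAA on both strands, so that it can read TTCAAA. The stretches lie at chr2:164769873-164769932 (plus strand, Ube2c), chr4:117178843-117178902 (minus strand, Kif2c), chr4:118437329-118437388 (minus strand, Cdc20) and chr10:69352895-69352954 (minus strand, Cdk1).
Ube2c: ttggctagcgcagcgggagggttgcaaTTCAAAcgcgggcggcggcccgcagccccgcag
Kif2c: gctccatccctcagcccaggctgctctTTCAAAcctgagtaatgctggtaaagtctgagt
Cdc20: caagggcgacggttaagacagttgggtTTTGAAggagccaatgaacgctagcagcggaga
Cdk1: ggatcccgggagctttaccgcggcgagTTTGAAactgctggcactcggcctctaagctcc

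An E2F site was found in the windows of 12 of 26 replication genes. Of these, Orc1, Pold1 and Gins3 did not pass the test of expression. The site was also found in Dnmt1, the maintenance DNA methyltransferase, in its partner Uhrf1 and in Hells. The next stretches show it in capitals, searched as TTTCCCGC, TTTGGCGC, TTTCGCGC or TTTGCCGC on both strands. In Mcm5 a pair of matches on opposite strands overlaps, and the capitals cover both. They lie at chr8:75109334-75109393 (plus strand, Mcm5), chr11:98907987-98908046 (plus strand, Cdc6) and chr17:56304102-56304161 (plus strand, Uhrf1).
Mcm5: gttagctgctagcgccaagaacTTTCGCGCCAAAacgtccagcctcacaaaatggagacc
Cdc6: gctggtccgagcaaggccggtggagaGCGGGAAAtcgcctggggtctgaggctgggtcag
Uhrf1: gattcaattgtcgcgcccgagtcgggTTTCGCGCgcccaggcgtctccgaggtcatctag

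Smooth muscle genes are shown for the CArG box, the element bound by serum response factor, in capitals below and searched on both strands. They lie at chr2:156775278-156775337 (plus strand, Myl9) and chr17:46556190-46556249 (minus strand, Srf, the gene of the factor itself). Of 18 smooth muscle genes with a window, 4 held a match. The others were Cnn2 and Vcl, which did not pass the test of expression. Actg2, Cnn1 and Tagln, which fell the most in this list, were not among the 4.
Myl9: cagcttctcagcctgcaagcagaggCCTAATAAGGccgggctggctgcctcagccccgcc
Srf: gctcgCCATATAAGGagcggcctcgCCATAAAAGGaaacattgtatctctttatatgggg

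Among the windows of the mitosis list, 20 of 25 held a CHR (80%), against 19.2% of all 32851 promoter windows. A CCAAT box (CCAAT, both strands) was in 76% of the mitosis windows and in 37.4% of all windows. An E2F site was in 12 of 30 replication windows (40%), against 2.26% of all windows, and a CArG box was in 4 of 20 smooth muscle windows (20%), against 1.63%. Over all genes that fell both with and without HD28 replicate 3, 26.7% of 475 windows held a CHR and 7.16% an E2F site, while over those that rose both ways the shares were 12.6% and 2.43% of 452 windows. The glucocorticoid receptor core (ACANNNTGT) was in 6.64% of the windows of risen genes and in 6.85% of all windows. The STAT element (TTCNNNGAA) was in 7.52% and 8.3% of them. By list, the receptor core was in 4 of 25 windows of glucocorticoid targets (16%), 4 of 19 of acute-phase proteins (21.1%) and 6 of 14 of cathepsins and their inhibitors (42.9%), and the STAT element was in 3 of 21 windows of oncostatin M targets (14.3%) and 5 of 19 of acute-phase proteins (26.3%). Such shares were not particular to these lists. The receptor core was also in 25% of the windows of FGF and HGF feedback genes and 19% of those of bile acid handling. The STAT element was in 28.6% of the bile acid windows and 25% of those of interferon-stimulated genes. Both were in 0 of 25 mitosis windows. A match describes the letters of the window and is not a site that was measured.

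The largest rises were in genes for a retinaldehyde dehydrogenase, a secreted protease inhibitor, a cathepsin inhibitor and a lipid carrier. Aldh1a1, which oxidises retinaldehyde to retinoic acid, read 3.42, 3.02 and 3.15 in the 3 MSC arrays and 10.40, 11.88 and 12.21 in the 3 HD28 arrays. It rose by 8.30 ± 0.42 (SE) log2 units, or 316-fold (adjusted p 1.1e-07), and by 7.95 without HD28 replicate 3 (adjusted p 6.5e-07). All HD28 arrays were far above all MSC arrays, and the Hepatocyte level of 13.31 was above both. Its near copy Aldh1a7 read 2.92 to 3.36 in MSC and 9.69, 11.99 and 11.03 in HD28, a rise of 7.71 ± 0.51 (8.32 without HD28 replicate 1). The probes of such close copies may share signal, and both genes lay in MSC under the mean lower quartile of the arrays (3.53), so the size of these changes is approximate.

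Serpina3n, an acute-phase inhibitor of serine proteases, read 4.86, 4.58 and 4.79 in MSC and 13.16, 12.87 and 12.30 in HD28. It rose 262-fold (8.03 ± 0.31 log2 units, adjusted p 1.1e-08), and by 8.27 without HD28 replicate 3. Here replicate 3 was the lowest of the HD28 arrays, and the Hepatocyte mean of 10.32 lay below all of them. Ctla2a, a cysteine protease inhibitor that resembles a cathepsin propeptide, read 4.61, 5.61 and 6.17 in MSC, 12.79, 13.38 and 13.20 in HD28 and 5.76 in Hepatocyte. It rose by 7.66 ± 0.53 log2 units (adjusted p 2.3e-06), and by 7.62 without HD28 replicate 3. Apod, a secreted lipid carrier of resting fibroblasts, read 4.91, 5.43 and 5.75 in MSC, 12.31, 12.62 and 12.74 in HD28 and 5.39 in Hepatocyte. For Ctla2a and Apod the hepatocytes thus stood at the MSC level. Apod rose by 7.19 ± 0.27 log2 units (adjusted p 1.1e-08), and by 7.10 without HD28 replicate 3.

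The other genes among the 15 largest rises were of several kinds. Spon1, a secreted matrix protein, read 5.08 to 5.13 in MSC and 10.27, 12.83 and 11.74 in HD28, and rose by 6.51 ± 0.45 (5.91 without HD28 replicate 2 and 7.19 without HD28 replicate 1). Cdo1, which oxidises cysteine, rose by 6.18 ± 0.46 and stood at 12.57 in Hepatocyte. Entpd3, an ectonucleotidase, read 4.45, 5.34 and 4.78 in MSC and 11.12, 9.92 and 10.62 in HD28, with 4.11 in Hepatocyte. Its HD28 arrays were far above both the MSC arrays and the hepatocytes, and it rose by 5.69 ± 0.29. The flavin monooxygenase Fmo1 read 4.48, 5.61 and 6.07 in MSC and 9.65, 11.51 and 11.19 in HD28, and rose 42.1-fold (5.40 ± 0.73, adjusted p 0.00048). Scara5, a ferritin receptor, rose by 5.81 ± 0.58 (5.20 without HD28 replicate 1 and 6.65 without HD28 replicate 2), but its 2 probe sets differed in sign. Frmd4b, the chromatin remodeller Smarca1, the digestive enzymes Mgam and Amy1, and Perp, a desmosome protein, rose by 5.31 to 5.97 from MSC levels under the quartile.

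**Figure D2:**
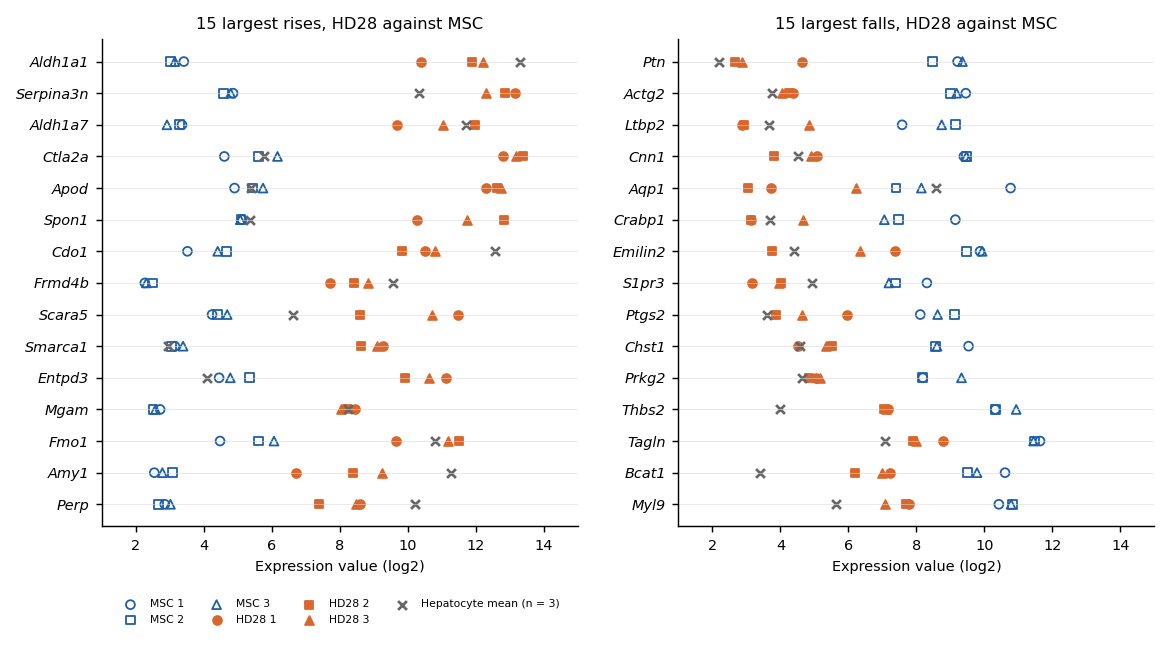
Log2 expression in each MSC array (open symbols) and each HD28 array (filled symbols), with the Hepatocyte mean as a cross, for the 15 largest rises and the 15 largest falls among genes that passed with and without HD28 replicate 3. Genes were eligible only if their HD28 and MSC arrays did not overlap, so the gap between the groups follows from the choice. The Hepatocyte mean lies with HD28 in some rises (Aldh1a1) and with MSC in others (Apod).

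The largest falls were in contractile, growth factor and matrix genes. Ptn (pleiotrophin), a heparin-binding growth factor, read 9.21, 8.48 and 9.35 in MSC and 4.64, 2.68 and 2.87 in HD28. It fell 49-fold (-5.62 ± 0.47, adjusted p 1.2e-05), and by 6.24 log2 units without HD28 replicate 1. Actg2, the enteric smooth muscle actin, read 9.45, 9.0 and 9.18 in MSC and 4.37, 4.24 and 4.05 in HD28, and fell 31.8-fold (-4.99 ± 0.29, adjusted p 3.8e-07). In both genes all HD28 arrays were far below all MSC arrays. Ltbp2, a fibrillin-binding protein of elastic fibres, fell by 4.95 log2 units (by 5.60 without HD28 replicate 3, where it stood 2 units above the other HD28 arrays). Crabp1, which binds retinoic acid in the cytoplasm, fell by 4.25 ± 0.66 (by 3.62 without MSC replicate 1).

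Further falls included Ptgs2 (cyclooxygenase), an enzyme of prostaglandin synthesis, by 3.80 ± 0.80, and the sphingosine phosphate receptor S1pr3 by 3.91 ± 0.47. Thbs2, a matricellular protein, read 10.32, 10.32 and 10.94 in MSC and 7.17, 7.05 and 7.10 in HD28, and fell by 3.42 ± 0.27. Its arrays were tightly grouped on both sides. Bcat1, the cytosolic aminotransferase of branched-chain amino acids, fell by 3.16 ± 0.36. The matrix glycoprotein Emilin2 fell by 3.94 ± 0.82, but by 2.90 without HD28 replicate 2 and 4.71 without HD28 replicate 1. Aqp1, a water channel, fell by 4.43 ± 1.09 and did not pass without MSC replicate 1 (adjusted p 0.088), HD28 replicate 1 (0.066) or HD28 replicate 2 (0.084).

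Of 17 receptor and kinase genes for the added factors, 2 rose (Insr and Fgfr2) and 1 fell (Tfrc, the transferrin receptor), with a median change of 0.51. The shares over all genes were 3.24% and 3.52%. All HD28 arrays lay above all MSC arrays in 8 of the 17, against 10.7% of all genes, but 0 of the 3 calls passed under every left-out array. Insr, the insulin receptor, rose by 1.75 with all arrays and did not pass without HD28 replicate 3 (adjusted p 0.13), without MSC replicate 1 (0.18) or without HD28 replicate 1 (0.12), and 2 of its 3 probe sets had the other sign. Fgfr2 rose by 1.53 and did not pass without MSC replicate 1 (0.072) or HD28 replicate 1 (0.077), and Tfrc fell by 1.00 and did not pass without any array but HD28 replicate 3 (adjusted p 0.051 to 0.13 without each of the others). Osmr, the receptor of oncostatin M, read 7.02, 9.17 and 9.09 in MSC and 10.75, 10.27 and 10.48 in HD28. All HD28 arrays were above all MSC arrays, and MSC replicate 1 was the lowest. Its difference of 2.07 ± 0.64 had an adjusted p of 0.055, and of 0.0035 once the fit included the spike-in class. Met differed by -0.90 ± 0.22 (adjusted p 0.018), short of a 2-fold fall (-1.04 without MSC replicate 1, which passed), and Nr3c1 by -0.18.

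The feedback genes of FGF and HGF signalling were lower. Of 14 such genes 7 fell and 0 rose (median -1.15, against -0.08 for all genes), and 6 fell without HD28 replicate 3. The number was 4 without HD28 replicate 1 or 2 and 5 without MSC replicate 1 or 3, and the 4 that passed each time were Fosl1, Etv5, Dusp4 and Dusp5. Etv5, a transcription factor downstream of FGF receptors, read 7.63, 6.20 and 6.99 in MSC and 4.53, 4.93 and 5.06 in HD28, and fell 2.10 ± 0.30 log2 units (adjusted p 0.00075). Dusp5, a phosphatase that switches off the MAP kinase ERK, read 7.80, 7.41 and 7.34 in MSC and 6.03, 5.98 and 5.40 in HD28, and fell by 1.72 ± 0.28. The groups did not overlap in either gene. Dusp6, the best known ERK phosphatase, differed by -0.90 ± 0.28 (adjusted p 0.059) and passed only without HD28 replicate 3 (-1.12, adjusted p 0.033) among the 2 fits. HGF and bFGF were part of the first step alone, and the MSC medium held serum. The part of either in these falls was not tested, and the design cannot tell them apart.

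Of 20 glucocorticoid targets 10 rose and 0 fell (median 1.58), and without HD28 replicate 3 the numbers were 9 and 1 (median 1.36), with Errfi1 as the fall. The counts of rises lay between 9 and 11 with each array left out, and 9 genes rose each time. Tsc22d3 (GILZ), which blocks inflammatory transcription factors, read 7.53, 7.66 and 8.23 in MSC and 11.996, 11.46 and 11.87 in HD28. It rose by 3.97 ± 0.43 (adjusted p 9.5e-05), with 9.28 in Hepatocyte. Fkbp5, a chaperone that limits the receptor itself, read 9.13, 8.52 and 8.34 in MSC, 11.64, 11.79 and 11.53 in HD28 and 8.62 in Hepatocyte. In both genes the HD28 arrays lay close together, above both other cell types. Fkbp5 rose by 2.99 ± 0.33 (adjusted p 0.00012). For both genes 1 of the other probe sets had the opposite sign.

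The metallothioneins, which bind zinc and copper and respond to glucocorticoids and to metals, rose as a pair. Mt2 read 9.15, 9.65 and 10.55 in MSC and 13.18, 12.95 and 12.76 in HD28 (3.18 ± 0.57, adjusted p 0.0033), and Mt1 read 11.14, 10.52 and 11.37 against 13.57, 13.58 and 13.30 (2.47 ± 0.48, adjusted p 0.0052). Neither gene had overlapping arrays, and HD28 replicate 3 was the lowest HD28 array in both. Klf15, a transcription factor for amino acid and glucose metabolism, rose by 3.05 ± 0.58 (3.85 without HD28 replicate 1), Glul (glutamine synthetase) by 2.28 ± 0.27 and Angptl4, an inhibitor of lipoprotein lipase, by 2.55 ± 0.28. The clock gene Per1 rose by 1.40 ± 0.29 and Zbtb16 by 1.29 ± 0.20. Pdk4, which shuts off pyruvate oxidation, read 9.33, 10.20 and 10.17 in MSC and 12.17, 12.36 and 12.30 in HD28. It differed by 2.38 ± 0.72, with the groups apart, but missed the threshold (adjusted p 0.053). The pooled SE includes Hepatocyte, where Pdk4 had an SD of 2.14, against 0.49 in MSC and 0.10 in HD28. Pdk4 passed once the spike-in class was blocked (adjusted p 0.018). Tat, a liver enzyme of tyrosine breakdown and a textbook target of the hormone in hepatocytes, read 4.25, 4.81 and 9.84 in the 3 HD28 arrays and 4.50 to 4.97 in MSC, high only in replicate 3.

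**Figure D3:**
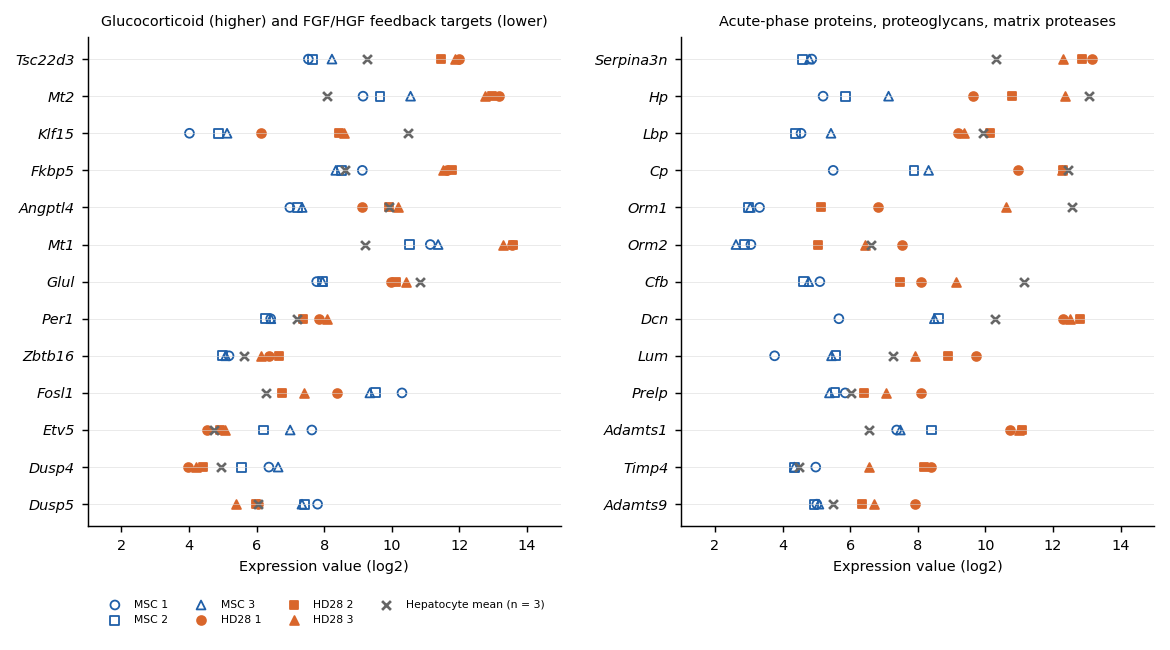
Log2 expression in each MSC array (open symbols) and HD28 array (filled symbols), with the Hepatocyte mean as a cross, for list members that passed with every array left out in turn. The 9 glucocorticoid targets, from Tsc22d3 to Zbtb16, lie higher in HD28, the 4 FGF and HGF feedback genes lie lower, and Orm1 shows HD28 replicate 3 far above the other HD28 arrays.

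Of 22 targets of oncostatin M and STAT3 4 rose and 0 fell (median 0.66), also 4 and 0 without HD28 replicate 3, but 2 without MSC replicate 1. Cebpd, a transcription factor of the acute-phase response, read 8.41, 8.0 and 8.19 in MSC and 10.62, 11.51 and 11.03 in HD28, and rose by 2.86 ± 0.35 (adjusted p 0.00021). Lbp, which binds bacterial lipopolysaccharide, read 4.55, 4.39 and 5.43 in MSC, 9.19, 10.14 and 9.38 in HD28 and 9.92 in Hepatocyte, a rise of 4.78 ± 0.52 (adjusted p 1e-04). The arrays of the groups were far apart in both. Lcn2, an iron-sequestering acute-phase protein, rose by 5.41 ± 1.36 but did not pass without MSC replicate 1 (adjusted p 0.087), MSC replicate 2 (0.069) or HD28 replicate 3 (0.079). Saa3, the serum amyloid A of stromal cells, read 5.76, 5.53 and 10.22 in MSC and 8.77, 12.34 and 12.88 in HD28. Its groups overlapped, and its difference of 4.16 ± 1.72 did not pass (adjusted p 0.15).

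The acute-phase plasma proteins split into those that were up in every HD28 array and those that were up in replicate 3 alone. Of 23 genes 8 rose (median 2.79), and 7 rose without HD28 replicate 3 while the median dropped to 0.28. The 7 that passed with every array left out were Serpina3n, Hp, Lbp, Cp, Orm1, Orm2 and Cfb. Haptoglobin (Hp), which clears free haemoglobin, read 5.20, 5.87 and 7.14 in MSC, 9.63, 10.77 and 12.35 in HD28 and 13.07 in Hepatocyte. It rose by 4.85 ± 0.95 (adjusted p 0.0057), by 4.14 without HD28 replicate 3 and by 5.50 without HD28 replicate 1. Ceruloplasmin (Cp), a copper-carrying ferroxidase, read 5.50, 7.89 and 8.32 in MSC and 10.98, 12.29 and 12.26 in HD28, and rose by 4.61 ± 0.83 (3.74 without MSC replicate 1). Complement factor B (Cfb) read 4.62 to 5.10 in MSC and 8.10, 7.48 and 9.14 in HD28, and rose by 3.41 ± 0.31. In these genes all 3 HD28 arrays, replicates 1 and 2 included, lay above every MSC array.

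The orosomucoids, carrier proteins of plasma, show the difference between the arrays. Orm1 read 3.32, 3.00 and 3.04 in MSC, 6.83, 5.12 and 10.61 in HD28 and 12.58 in Hepatocyte. It rose by 4.40 ± 0.92 (21.1-fold) with all arrays and by 2.85 ± 0.39 (7.22-fold, adjusted p 0.00076) without HD28 replicate 3. Orm2 read 2.62 to 3.06 in MSC and 7.55, 5.06 and 6.43 in HD28, and rose by 3.49 ± 0.54. In Orm2 replicate 1 was the highest, and both genes lay under the quartile in MSC. The fibrinogen chain Fga, in contrast, differed by 2.91 with all arrays and by -0.13 without HD28 replicate 3, and passed in neither.

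The medians of the other hepatocyte lists moved with HD28 replicate 3. Of 31 secreted plasma proteins 1 rose (Hp), with a median of 2.13 with all arrays and -0.24 without HD28 replicate 3. The median over 23 genes of the urea cycle and amino acid breakdown was 1.06 and -0.08, that over 14 genes of gluconeogenesis and glycogen 1.14 and 0.08, and that over 21 genes of bile acid handling 0.87 and 0.07. The rises in these 3 lists were 0, 1 and 0 with all arrays. The 1 was pyruvate carboxylase (Pcx), which read 8.05, 8.43 and 7.81 in MSC and 8.73, 9.40 and 9.45 in HD28, with replicate 2 level with replicate 3. It rose by 1.10 ± 0.25 and did not pass without HD28 replicate 3 (0.97, adjusted p 0.056), MSC replicate 3 (0.056) or HD28 replicate 2 (0.060). Cps1, the first enzyme of the urea cycle, read 3.61 and 4.20 in HD28 replicates 1 and 2, 11.75 in replicate 3, 3.89 to 4.05 in MSC and 13.39 in Hepatocyte. The cytochrome Cyp3a11 read 2.92, 2.95 and 13.29 in the HD28 arrays, 2.85 to 3.23 in MSC and 13.64 in Hepatocyte. Arg1 read 3.41, 3.64 and 10.83 in HD28 and 13.16 in Hepatocyte. In these 3 enzymes HD28 replicates 1 and 2 stood at the MSC level and replicate 3 far above it, yet below the hepatocytes. Over the 365 genes that were high in replicate 3, the Hepatocyte mean exceeded replicate 3 by a median of 2.63 log2 units.

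Over 18 transcription factors of hepatocytes the median was 0.45 with all arrays and -0.10 without HD28 replicate 3. Of these 1 rose with all arrays, Onecut2, which read 3.40, 3.77 and 3.56 in MSC, 4.98, 4.13 and 4.97 in HD28 and 7.82 in Hepatocyte. Its HD28 replicate 1 was as high as replicate 3. It rose by 1.12 ± 0.27 and did not pass without HD28 replicate 3 (0.98, adjusted p 0.069), HD28 replicate 1 (0.071) or MSC replicate 1 (0.072). Hnf4a, the nuclear receptor that holds hepatocyte identity, read 5.10 to 5.31 in MSC, 4.92, 5.13 and 8.57 in HD28 and 10.92 in Hepatocyte. The keratin Krt18 read 3.22, 3.06 and 9.93 in HD28, 2.89 to 3.29 in MSC and 11.15 in Hepatocyte. In Hnf4a and Krt18 the high HD28 array was replicate 3 alone.

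**Figure D4:**
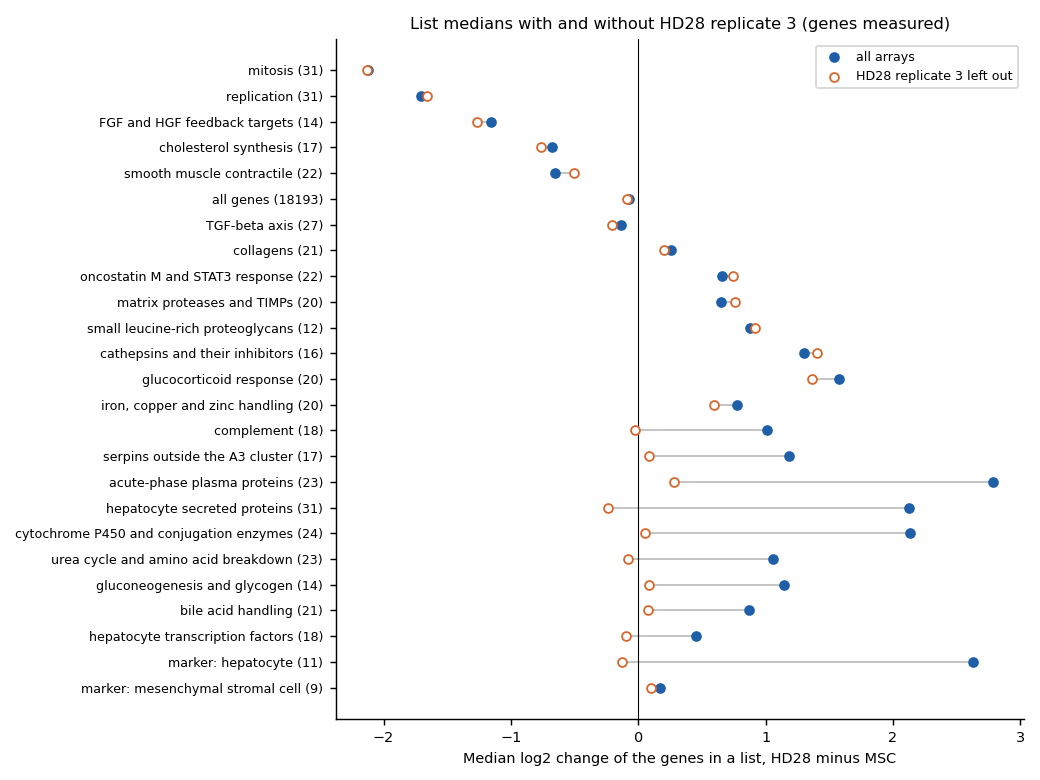
Median log2 change, HD28 minus MSC, over the measured genes of 24 lists and over all genes, with all arrays (filled) and with HD28 replicate 3 left out (open). The medians of the cell cycle, stromal and glucocorticoid lists lie close together in both fits, while those of the hepatocyte lists lie near 0 without HD28 replicate 3.

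Enzymes of drug metabolism did include genes raised in every HD28 array. Of 24 genes 6 rose with all arrays and 6 without HD28 replicate 3 (median 2.14 and 0.05), and 4 without any 1 of the MSC arrays. Fmo1, Sult1a1, Ephx1 and Gstm1 passed with every array left out. Sult1a1, a phenol sulfotransferase, read 3.79, 3.85 and 3.74 in MSC, 6.71, 7.83 and 8.78 in HD28 and 11.07 in Hepatocyte, and rose by 3.98 ± 0.36 (adjusted p 2.2e-05). Ephx1, the microsomal epoxide hydrolase, read 9.89, 10.29 and 10.23 in MSC, 12.19, 11.53 and 11.77 in HD28 and 11.65 in Hepatocyte, and rose by 1.69 ± 0.24. Both had all HD28 arrays above all MSC arrays, and Ephx1 had no raised replicate 3.

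Of 31 genes of DNA replication 23 fell and 0 rose (median -1.71), and 18 fell without HD28 replicate 3 (median -1.66). The number dropped to 15 when either MSC replicate 1 or HD28 replicate 2 was omitted, and 14 genes passed with every array left out. Mcm5, a subunit of the replicative helicase, read 12.12, 11.06 and 10.61 in MSC and 8.05, 8.66 and 8.74 in HD28, and fell by 2.78 ± 0.51 (adjusted p 0.0035). The origin licensing factor Cdc6 read 9.32, 8.11 and 7.60 in MSC and 5.82, 5.55 and 5.56 in HD28, a fall of 2.70 ± 0.46 (adjusted p 0.0023). MSC replicate 1 was the highest array in both, and the groups did not overlap. Gins1, a part of the active helicase, read 7.90, 7.84 and 7.84 against 5.65, 5.59 and 5.81 and fell by 2.18 ± 0.15. The falls of the primase Prim1 (1.74), the ligase Lig1 (2.11) and the thymidine kinase Tk1 (2.56) passed with every array left out in turn. The sliding clamp Pcna read 12.22, 11.94 and 12.09 in MSC and 11.39, 10.90 and 11.03 in HD28, a difference of -0.98 ± 0.16 (adjusted p 0.0018), just short of a 2-fold fall. It passed without MSC replicate 2 (-1.05) and without HD28 replicate 1 (-1.12).

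Of 31 mitotic genes 29 fell and 0 rose (median -2.12), 27 fell without HD28 replicate 3 (median -2.13), and the number stayed between 25 and 29 with each array left out. Ube2c, the ubiquitin-conjugating enzyme of the anaphase complex whose CHR is shown above, read 11.27, 10.57 and 10.54 in MSC and 8.56, 8.01 and 8.10 in HD28, and fell by 2.58 ± 0.41 (adjusted p 0.0015). The mitotic kinase Cdk1 read 10.88, 10.51 and 10.23 against 8.97, 8.52 and 8.37, and fell by 1.92 ± 0.27 (adjusted p 0.00057). Cdc20, which activates the anaphase complex, read 11.49, 10.45 and 10.42 against 8.65, 8.03 and 8.28, and fell by 2.47 ± 0.52 (adjusted p 0.0082). In each of these genes every HD28 array was lower by more than 1 log2 unit than every MSC array. Kif2c, a kinesin that takes microtubules apart, fell by 2.69 ± 0.34, the centromere histone Cenpa by 2.68 ± 0.32 and the chromosomal passenger protein Cdca8 by 2.85 ± 0.41. Cenpf (-1.37, adjusted p 0.12) and Nusap1 (-1.10) did not pass, and Cenpf did once the spike-in class was blocked (adjusted p 0.007). Transcripts remained in HD28: Cdk1 stood at 8.37 or more there and at 5.81 in Hepatocyte. Mki67, the proliferation marker, fell by 1.60 ± 0.44 with all arrays (adjusted p 0.034). Of the fits with 1 array left out it passed only in that without MSC replicate 1, with adjusted p 0.055, 0.12 and 0.074 when HD28 replicates 1, 2 and 3 were omitted and 0.12 and 0.083 when MSC replicates 2 and 3 were.

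**Figure D5:**
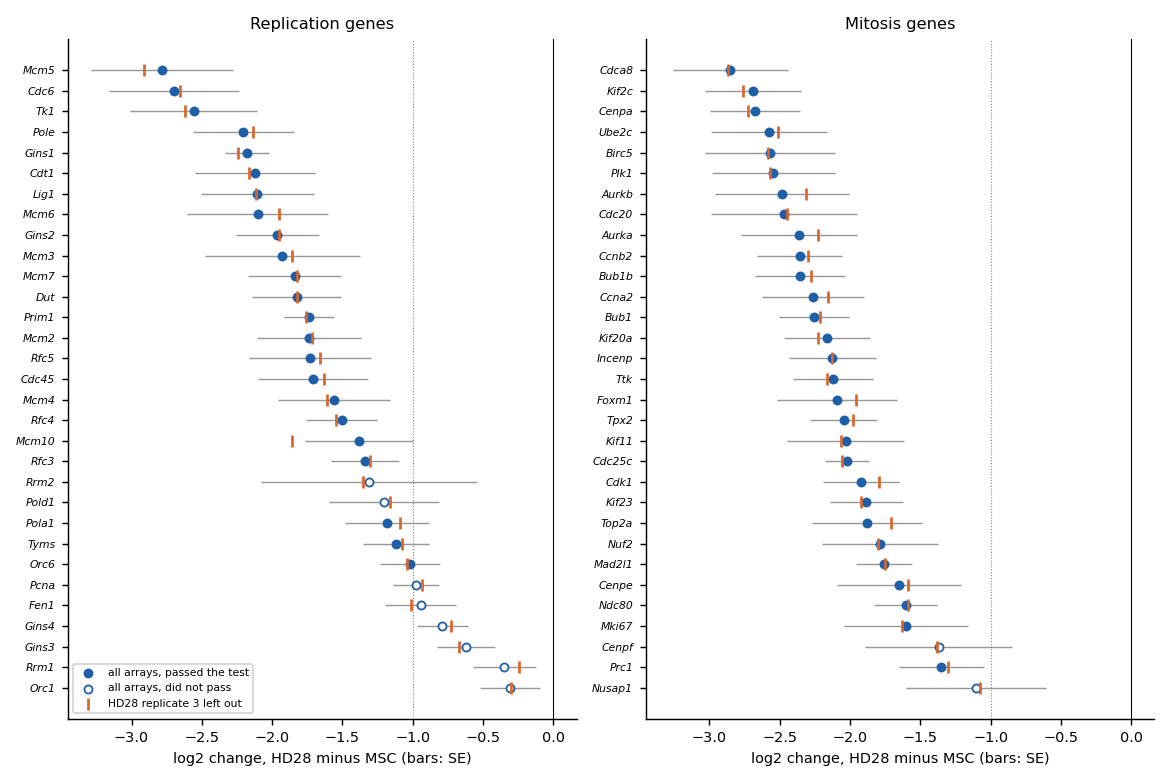
Log2 change, HD28 minus MSC, of each measured replication and mitosis gene with its SE; filled points passed the test with all arrays, open points did not, and the vertical marks are the changes with HD28 replicate 3 left out. All 62 points lie left of 0, and most lie left of the dotted line at a 2-fold fall.

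Of 30 CDK inhibitors, G1 cyclins and E2F genes 1 rose and 5 fell (median -0.11), against 3.24% and 3.52% of all genes. The count of falls was 3 without HD28 replicate 3, MSC replicate 1 or MSC replicate 3, and 2 without HD28 replicate 2. The atypical repressors E2f7 (by 2.32 ± 0.47) and E2f8 (by 2.14 ± 0.27) fell with all arrays and with each array left out in turn. The CDK inhibitor Cdkn1a read 9.28, 9.49 and 9.43 in MSC and 10.87, 10.56 and 10.89 in HD28. Its groups were apart, with a difference of 1.37 ± 0.54, but it did not pass (adjusted p 0.13). Its arrays lay close together within MSC and within HD28, and the SE pools the spread of all 5 groups.

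The title of the series concerns DNA methyltransferases, and the genes of DNA methylation included some that fell. Of 17 genes 3 fell and 0 rose with all arrays (median 0.07), and 2 fell without HD28 replicate 3. Uhrf1, which brings the maintenance methyltransferase to replicated DNA and whose E2F site is shown above, read 10.93, 9.29 and 9.54 in MSC and 7.88, 7.08 and 7.62 in HD28. It fell by 2.40 ± 0.47 (adjusted p 0.0055) and passed with every array left out. Dnmt1, the maintenance methyltransferase, read 10.03, 8.98 and 8.72 in MSC, 7.63, 7.72 and 7.60 in HD28 and 6.21 in Hepatocyte. It fell by 1.59 ± 0.41 (adjusted p 0.024) with the groups apart, but did not pass without MSC replicate 1 (adjusted p 0.11), HD28 replicate 1 (0.062), HD28 replicate 2 (0.062) or HD28 replicate 3 (0.062). Hells, a remodeller needed for methylation, fell by 2.20 and did not pass without MSC replicate 1 (0.054), MSC replicate 2 (0.065) or HD28 replicate 2 (0.088). The de novo enzymes Dnmt3a and Dnmt3b differed by -0.20 ± 0.29 and -0.41 ± 0.13, and the demethylating Tet2 by 0.85 ± 0.53, none of which passed.

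Genes of the smooth muscle contractile apparatus, which cultured stromal cells express, were in part much lower. Of 22 genes 6 fell and 1 rose (median -0.65), and 5 fell and 0 rose without HD28 replicate 3. Actg2, Cnn1, Tagln and Myl9 passed with every array left out, and falls numbered 4 without MSC replicate 1 or HD28 replicate 2. Calponin (Cnn1), which restrains actomyosin, read 9.40, 9.47 and 9.47 in MSC and 5.07, 3.81 and 4.90 in HD28, and fell 28.9-fold (-4.85 ± 0.38, adjusted p 6.7e-06). Transgelin (Tagln) read 11.64, 11.48 and 11.45 against 8.79, 7.91 and 7.99 and fell 9.79-fold (-3.29 ± 0.46). Myl9, a myosin light chain whose CArG box is shown above, read 10.43, 10.83 and 10.78 against 7.79, 7.69 and 7.08 and fell by 3.16 ± 0.68 (adjusted p 0.0098). The groups were far apart in all of these. Srf fell by 1.26 ± 0.34 (adjusted p 0.028), and by 1.37 without HD28 replicate 3 (adjusted p 0.046), but its adjusted p was 0.091 or 0.083 when HD28 replicate 1 or 2 was omitted and 0.13 when MSC replicate 1 was. The alpha actin Acta2 read 13.30, 13.47 and 13.38 in MSC and 12.39, 12.56 and 11.66 in HD28. It was lower in every HD28 array without passing (-1.18 ± 0.59, adjusted p 0.25).

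Of 21 collagen genes 3 rose and 1 fell (median 0.26), the same numbers without HD28 replicate 3, against 3.24% and 3.52% of all genes. Col11a1, a minor chain of cartilage fibrils, read 6.25, 8.94 and 7.96 in MSC and 10.52, 10.88 and 10.25 in HD28, and rose by 2.84 ± 0.56 (2.10 without MSC replicate 1 and 3.45 without MSC replicate 2). Col4a2, a chain of basement membrane collagen, rose by 1.28 ± 0.22. Col8a1 fell by 2.48 ± 0.64, and did not pass without MSC replicate 2 (adjusted p 0.093), MSC replicate 3 (0.067), HD28 replicate 1 (0.097) or HD28 replicate 2 (0.096). Of 27 genes of the TGF-β axis, a driver of matrix production, 2 fell and 0 rose in both fits (median -0.14 with all arrays): Ltbp2 and Grem1, an antagonist of bone morphogenetic proteins, which fell by 2.89 ± 0.38.

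Small leucine-rich proteoglycans, which coat collagen fibrils, included 3 rises among 12 genes (median 0.88), also 3 without HD28 replicate 3 and with each other array left out. Decorin (Dcn) read 5.67, 8.62 and 8.49 in MSC, 12.30, 12.79 and 12.52 in HD28 and 10.29 in Hepatocyte. It rose by 4.94 ± 0.99 (adjusted p 0.0062), and by 3.98 without MSC replicate 1, which was the lowest MSC array. Lumican (Lum) read 3.77, 5.58 and 5.45 in MSC and 9.72, 8.88 and 7.91 in HD28, a rise of 3.91 ± 0.51 (3.32 without MSC replicate 1). Prelp rose by 1.59 ± 0.33. The HD28 arrays exceeded the MSC arrays in all 3 genes. The other 9 did not pass, among them osteomodulin (Omd, 2.38, adjusted p 0.22) and biglycan (Bgn, 0.16). Omd read 4.18 in MSC replicate 1 against 9.15 and 8.46 in the other MSC arrays, and passed once the spike-in class was blocked (adjusted p 0.042).

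Proteases and their inhibitors changed in the matrix and in lysosomes. Of 20 matrix proteases and TIMPs 6 rose and 0 fell (median 0.65), 5 without HD28 replicate 3, 4 without MSC replicate 1 or 2 and 3 without HD28 replicate 2. Adamts1, which cleaves proteoglycans, read 7.37, 8.40 and 7.48 in MSC and 10.74, 11.09 and 10.998 in HD28, and rose by 3.19 ± 0.33 (adjusted p 5.8e-05). The inhibitor Timp4 read 4.98, 4.36 and 4.35 in MSC and 8.40, 8.18 and 6.56 in HD28, and rose by 3.15 ± 0.37 with all arrays and by 3.72 without HD28 replicate 3, where it was lowest. Mmp13, an interstitial collagenase, read 3.27, 9.06 and 9.66 in MSC and 12.49, 12.13 and 12.44 in HD28. Its HD28 arrays were all higher, but MSC replicate 1 lay far below its group, and the difference of 5.02 ± 1.68 did not pass (adjusted p 0.079). It passed once the spike-in class was blocked (adjusted p 0.011), and was 2.99 without MSC replicate 1 (adjusted p 0.31).

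Of 16 cathepsins and cathepsin inhibitors 7 rose and 0 fell (median 1.30), 6 without HD28 replicate 3, 4 without MSC replicate 1 and 9 without MSC replicate 3. Cathepsin K (Ctsk), a collagen-degrading enzyme, read 6.50, 7.51 and 8.94 in MSC and 11.07, 11.67 and 10.73 in HD28, and rose by 3.51 ± 0.61 (4.15 without MSC replicate 3). Its secreted inhibitor cystatin C (Cst3) read 11.20, 11.57 and 11.64 in MSC and 13.51, 13.84 and 13.67 in HD28, and rose by 2.21 ± 0.18 (adjusted p 1.2e-05). Both the enzyme and the inhibitor were higher in every HD28 array.

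Secreted growth factors changed singly. Of 22 genes 2 rose and 1 fell (median -0.20), the same with each array left out, against 3.24% and 3.52% of all genes. Vegfd, a lymphatic growth factor, read 8.72, 9.01 and 8.59 in MSC, 11.77, 12.35 and 12.06 in HD28 and 5.63 in Hepatocyte, and rose by 3.29 ± 0.25 (adjusted p 6.3e-06). Flt4, its receptor, read 5.43, 5.48 and 5.43 in MSC and 9.30, 7.28 and 8.16 in HD28, and rose by 2.80 ± 0.47. Ligand and receptor were thus higher in all HD28 arrays. Angpt1, a ligand of the vascular receptor Tie2, rose by 2.96 ± 0.40, and Ptn is the fall described above. In the IGF axis 3 of 15 genes rose (median 0.54), and 2 without HD28 replicate 3. Igf2, a fetal growth factor, read 5.74, 6.64 and 6.58 in MSC and 7.59, 11.49 and 10.29 in HD28, and rose by 3.47 ± 0.72 (4.57 without HD28 replicate 1, the lowest HD28 array, and 2.62 without HD28 replicate 2). Igf1 rose by 3.17 but did not pass without MSC replicate 1 (adjusted p 0.065), HD28 replicate 2 (0.051) or HD28 replicate 3 (0.057). Igfbp4 rose by 3.45 ± 0.56 (2.81 without MSC replicate 1).

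Of 20 Wnt pathway genes 5 rose and 0 fell in both fits (median 0.03 with all arrays), and 3 rose without MSC replicate 1. Axin2, a feedback inhibitor induced by Wnt signalling, read 5.64, 5.99 and 5.65 in MSC and 7.72, 8.29 and 8.01 in HD28, and rose by 2.24 ± 0.23 (adjusted p 6.1e-05). Wnt4 rose by 1.63 ± 0.32 and Ccn5, a matricellular protein, by 2.10 ± 0.42. The secreted modulators Wif1 and Sfrp1 rose by 3.87 (adjusted p 0.019) and 1.74 (adjusted p 0.022). Wif1 read 8.26, 2.61 and 6.52 in HD28, and lay under the quartile in MSC. It did not pass without MSC replicate 1 or 3 or HD28 replicate 1 (adjusted p 0.052 each) or HD28 replicate 3 (0.064). Sfrp1 did not pass without MSC replicate 1 (0.068) or HD28 replicate 2 (0.080). All HD28 arrays were higher than all MSC arrays in these 5 genes. Among adipogenesis genes 3 of 21 rose (median 0.06), namely Apod, Cebpd and Plin2. Plin2 rose by 1.02 and did not pass when HD28 replicate 2 (adjusted p 0.074) or 3 (0.088) or MSC replicate 1 (0.076) or 2 (0.093) was omitted. The adipocyte regulator Pparg differed by 0.47 ± 0.28. Of 16 bone and cartilage genes 2 rose and 1 fell (median -0.02). Ibsp, bone sialoprotein, read 3.27 to 3.40 in MSC and 9.06, 5.36 and 8.02 in HD28. It rose by 4.12 ± 0.63 (3.33 without HD28 replicate 1 and 5.18 without HD28 replicate 2) from MSC levels under the quartile. Comp, a cartilage matrix protein, rose by 2.33 ± 0.21. Phex fell by 1.51 ± 0.35 (adjusted p 0.014), to an HD28 mean under the quartile. It did not pass without HD28 replicate 2 (adjusted p 0.051) or 3 (0.052).

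In the handling of iron, copper and zinc 6 of 20 genes rose and 1 fell in both fits (median 0.77 with all arrays), and all 6 rises passed with every array left out. Beside Mt1, Mt2 and Cp these were the zinc importer Slc39a8 (3.05 ± 0.56), the iron regulator Hfe (2.66 ± 0.39) and the copper pump Atp7a (2.26 ± 0.47). Of 20 genes of oxidative stress defence 3 rose. The plasma glutathione peroxidase Gpx3 read 8.43, 7.45 and 10.47 in MSC, 13.84, 13.39 and 13.31 in HD28 and 5.88 in Hepatocyte, and rose by 4.74 ± 1.04 (4.07 without MSC replicate 2 and 5.58 without MSC replicate 3). Every HD28 array was above every MSC array, and both were above the hepatocytes. The microsomal glutathione transferase Mgst1 rose by 2.65 ± 0.49 (adjusted p 0.0036) and the cytosolic Gstm2 by 1.38 ± 0.27 (adjusted p 0.0053), and all 3 rises passed with every array left out.

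Genes of the NAD pathway, which nicotinamide feeds, changed singly: of 20, 3 rose and 1 fell in both fits. The neuronal-type NAD synthase Nmnat2 read 5.78, 5.91 and 6.19 in MSC and 7.63, 7.97 and 7.81 in HD28, and rose by 1.84 ± 0.25. The NAD-consuming polymerase Parp1 fell by 1.41 ± 0.30. Nampt, the rate-limiting enzyme of NAD salvage, rose by 1.44 but did not pass without MSC replicate 1 (adjusted p 0.10), MSC replicate 2 (0.072), HD28 replicate 1 (0.085) or HD28 replicate 2 (0.069). No sirtuin, the NAD-dependent deacetylases, passed in either fit.

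Of 21 interferon-stimulated genes 0 passed with all arrays (median 0.51), and of 21 chemokines 1 fell, Cx3cl1 (by 1.24 ± 0.26). The shares over all genes, for these and the next lists, were 3.24% for rises and 3.52% for falls. Of 15 genes of antigen presentation 2 rose, the class I heavy chain H2-D1 (2.34 ± 0.36, with 1 probe set of 9 of the other sign) and its activator Nlrc5 (1.73 ± 0.28). Of 18 complement genes 3 rose with all arrays (median 1.01) and 2 without HD28 replicate 3 (median -0.03), Cfb and C1ra (2.07 ± 0.45, and 1.46 without MSC replicate 1). No gene of glycolysis (19 genes), fatty acid oxidation (19), fatty acid synthesis (21) or the unfolded protein response (19) passed in either direction with all arrays. In cholesterol synthesis 1 of 17 fell, Mvd, with a median of -0.68 over the list. Mvd did not pass without HD28 replicate 2 (adjusted p 0.11) or without MSC replicate 1 (0.090), 2 or 3 (0.060 for both).

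Of 19 surface genes of stromal cells 1 fell (Nes, by 1.06) and 0 rose with all arrays (median -0.20). Over all genes 3.52% fell and 3.24% rose. Without HD28 replicate 3, 2 other surface genes fell, Alcam among them. Nes came short of 2-fold without HD28 replicate 3 (-0.99), HD28 replicate 1 (-0.98) or MSC replicate 1 (-0.93). The hyaluronan receptor Cd44 read 10.53, 10.36 and 10.21 in MSC and 8.78, 8.12 and 8.76 in HD28, and differed by -1.81 ± 0.68 (adjusted p 0.12), with all HD28 arrays below all MSC arrays. Pdgfra, a receptor that marks stromal cells, read 7.51, 10.21 and 9.95 in MSC and 11.33, 11.13 and 11.15 in HD28. Its HD28 arrays were all above the MSC arrays, but its difference of 1.98 ± 0.67 did not pass (adjusted p 0.082). It passed once the spike-in class was blocked (adjusted p 0.0056), and was 1.12 without MSC replicate 1 (adjusted p 0.31). Of 18 mesenchymal transcription factors and cadherins 2 fell (Foxc2 by 1.21 and Prrx2 by 1.01) and 0 rose, and 0 passed when HD28 replicate 2 or 3 or MSC replicate 2 was omitted. Foxc2 also missed it when HD28 replicate 1 (adjusted p 0.11) or MSC replicate 1 (0.15) was omitted.

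Leaving out HD28 replicate 3 ended 140 rises and 147 falls and added 42 rises and 63 falls. The added falls include genes that the hepatocytes express and that replicate 3 carried. Stbd1, which binds glycogen, read 6.02, 6.14 and 7.53 in MSC, 3.86, 2.72 and 7.82 in HD28 and 10.04 in Hepatocyte. It differed by -1.76 with all arrays (adjusted p 0.28) and fell by 3.27 without HD28 replicate 3 (adjusted p 0.0014). Cth, which makes cysteine, read 6.98, 6.65 and 7.89 in MSC, 5.12, 5.81 and 9.69 in HD28 and 11.91 in Hepatocyte, and fell by 1.71 in that fit (adjusted p 0.022). The adhesion molecule Alcam read 6.12, 6.42 and 6.04 in MSC and 3.99, 3.57 and 6.50 in HD28, and fell by 2.42 in that fit. In these 3 genes replicates 1 and 2 lay below every MSC array and replicate 3 within or above the MSC range. Fbn2, a microfibril protein, read 3.61 to 4.05 in MSC and 7.96, 5.07 and 4.89 in HD28. It differed by 2.10 with all arrays (adjusted p 0.056) and rose by 2.64 without HD28 replicate 3 (adjusted p 0.027), by 2.55 without HD28 replicate 2 (0.048) and by 2.10 once the spike-in class was blocked (0.049).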

How the data were processed

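The authors deposited log2 expression values of 45101 probe sets on 15 Affymetrix arrays, made by robust multi-array average (RMA), per the submitters' processing notes, with no version named. The log base was taken as 2 from the range (1.32 to 14.15). Gene symbols came from the platform annotation: 34945 probe sets had 1 symbol, 932 several and 9160 none, 64 were controls, and the probe sets without exactly 1 symbol were not used. The gene IDs of 34741 probe sets matched RefSeq (GRCm38.p6).

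Group means were fitted to all 15 arrays, or to 14 without HD28 replicate 3, with limma 3.58.1 in R 4.3.3 (lmFit, eBayes), leaving 10 or 9 residual degrees of freedom. The SE pools the spread of all 5 groups, and its median was 0.216. Two-sided p-values were adjusted over 18193 genes (Benjamini-Hochberg). Precision is limited by the number of arrays, which carry no read depth. The model was tested on simulated data. Promoter windows of 300 bases were searched in Python 3.11.15.

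The members, the 53 lists (913 of 990 genes measured) and the tests were chosen with earlier results of these data known. Genes named by rule are the 15 largest rises and falls called with and without HD28 replicate 3, the 4 called members of each list with the largest change (2 largest where none was called), all members of the receptor, proteoglycan and DNA methylation lists, and the genes in which HD28 replicate 3 stood apart or decided a call. For the 15 largest rises and falls, only genes whose HD28 and MSC arrays did not overlap were eligible. Clone and model symbols were left out there. Other genes were chosen after their values were seen. Same-numbered MSC and HD28 arrays had deviations correlated by -0.14, -0.16 and 0.08. With 3 arrays per group these values cannot decide whether the numbers pair the arrays, which the main fits treat as unpaired.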

Additional observations from a re-analysis of the deposited data

How the results depend on the processing

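The 146 called genes weighed for naming kept their direction under each alternative that was read gene by gene. The fit with only arrays of low spike-in signal was read as counts alone. So were the alternatives to the fit without HD28 replicate 3. Of the values read gene by gene, 2260 kept their side of the threshold and 221, in 54 genes, did not. Most of these came from leaving out MSC replicate 1 (33), HD28 replicate 2 (33), HD28 replicate 1 (24) or HD28 replicate 3 (24), or from fitting only the 6 arrays compared (32). The number of rises was 392 with only those 6 arrays and lay between 376 and 622 with each array left out, lowest without MSC replicate 1. With only arrays of low spike-in signal, an alternative chosen after seeing the data, 370 rose and 419 fell. Without HD28 replicate 3, only the 5 arrays compared gave 254 rises and 318 falls, and the spike-in class as a block gave 828 rises. The cause of these shifts was not tested. With each array left out, falls among glucocorticoid targets numbered 0 to 1, rises among oncostatin M targets 2 to 4, falls among replication genes 15 to 23 and rises among smooth muscle genes 0 to 1, with 2 of the last under the spike-in block.

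Centring on housekeeping genes moved the median of all genes by 0.108 log2 units and gave 673 rises and 513 falls. With the replicate number as a block 637 genes rose and 664 fell, and no named call was lost. Whether the numbers pair these samples is not known. The deviations of MSC replicate 1 and HD28 replicate 2, both of high spike-in signal, correlated by 0.24. Among genes not called, 9 changed sign in some setting. With each array left out, the change ranged from -0.34 to 4.87 in Alb, -0.059 to 5.12 in Cyp3a11, -0.079 to 3.99 in Cps1, -0.19 to 1.64 in Hnf4a, -0.13 to 4.52 in Fga and -0.24 to 2.55 in Tat, lowest in each without HD28 replicate 3, and from -1.71 to 0.58 in Cth, -0.57 to 0.03 in Nr3c1 (0.008 with the mean of its probe sets) and -0.58 to 0.032 in Dnmt3a. Signal over background limits the dim genes: 12 of the 128 called genes that the naming rule chose had their lower group mean under the mean lower quartile of the arrays.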
